A study of Mus musculus with 10 samples.

Results

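The common gamma chain cytokine receptors are described here in 2 kinds of mature thymocyte, CD4SP and CD8SP, which keep a single coreceptor, CD4 or CD8. They are the T cells of the thymus that have completed selection and entered the helper or the cytotoxic lineage. The 8 genes are Il2rg, Il2ra, Il2rb, Il15ra, Il7r, Il4ra, Il21r and Il9r, of 23202 genes with a RefSeq transcript in the short-read files. They were chosen by name as the shared chain and the chains that pair with it, and all 8 were found. Each gene is described by its RefSeq transcripts and by those assembled spliced transcripts that share an intron with that gene and no other. Both groups came from C57BL/6 mice aged 6 to 8 weeks, with no treatment or engineered allele in the labels, and 2 or 3 thymi were pooled for a sample. CD4SP cells were depleted of CD8-expressing cells and CD8SP cells of CD4-expressing cells with magnetic beads. A flow sorter then kept cells with surface TCRβ, without CD24 and with the coreceptor of their lineage alone. Each lineage has 4 short-read samples that differ by sequencing lane, given as 1 pooled set of values, and 1 long-read library, so nothing here has a replicate and no p-value is given.

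The common gamma chain, encoded by Il2rg, is a signalling subunit shared by the receptors for the interleukins IL-2, IL-4, IL-7, IL-9, IL-15 and IL-21. A private chain gives each receptor its ligand, and the beta chain encoded by Il2rb serves both IL-2 and IL-15. The shared chain carries the kinase JAK3 and most private chains carry JAK1, and together they activate STAT transcription factors. In the thymus IL-7 supports the survival and expansion of precursors and the maturation of CD8 cells, IL-2 and IL-15 support regulatory and innate-like T cells, and loss of the shared chain leaves mice with very few lymphocytes.

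The defining genes of the labelled cells were as follows. Cd4 was at 107 and 1.69 FPKM in CD4SP and CD8SP, Cd8a at 10.9 and 241, Cd8b1 at 32.9 and 505, and the T cell gene Cd3e at 170 in both. Cd24a, the gene of the surface protein used to exclude immature cells, was at 11.8 and 10.1 FPKM. FPKM scales fragments to the length of a transcript and to the size of the library, so levels can be compared between genes. Each deposited FPKM has an interval, and gene values and intervals below are sums over transcripts.

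The receptor genes that differed by the rule below were Il2ra, Il2rb and Il21r. Il2ra was 8.80-fold higher in CD4SP, and Il2rb and Il21r were 2.89-fold and 2.16-fold higher in CD8SP. Il2rg, Il7r, Il4ra and Il15ra lay within 1.30-fold of equal, and Il9r was under 1 FPKM in both libraries. A gene was called when the higher library had at least 1 FPKM, the values differed at least 2-fold on the log2(FPKM + 0.1) scale and the summed intervals did not overlap. By that rule 3 of the 7 members at 1 FPKM or more were called, 1 higher in CD4SP and 2 in CD8SP. The call of Il21r was lost when the libraries were scaled to a median ratio of 0. Over all 9669 genes at that level 15.0% were called, 4.87% higher in CD4SP and 10.1% in CD8SP. The members' log2 ratios of CD8SP to CD4SP had a median of -0.17 over those 7, and all 9669 genes a median of 0.22. No test was made of either contrast, since the members were chosen with results known. In bulk RNA, fewer cells of a type and less RNA per cell cannot be told apart.

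**Figure D1:**
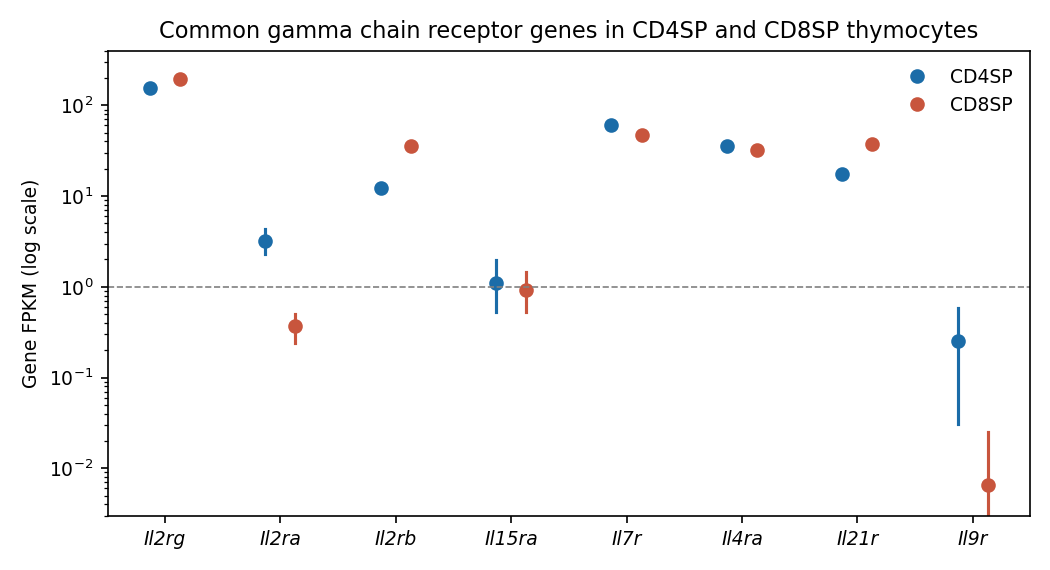
Gene FPKM of the 8 receptor genes on a log axis, with points for CD4SP (blue) and CD8SP (red) and vertical lines for the summed deposited intervals. The dashed line marks 1 FPKM, and the interval of Il9r in CD8SP reaches 0, below the axis; Il2ra stands higher in CD4SP at 3.22 against 0.366 FPKM, and Il2rb and Il21r stand higher in CD8SP.

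The shared chain gene was the most abundant member in both lineages. Il2rg (chrX:101264378-101268255, minus strand, GRCm38) was at 156 FPKM in CD4SP, with an interval of 151 to 160, and at 196 in CD8SP, with an interval of 195 to 203. It ranked 63 of 9669 genes in CD4SP and 61 in CD8SP. The intervals did not overlap, but the log2 ratio of 0.34 was under the size needed for a call, and it fell to 0.12 when the libraries were scaled to a median ratio of 0. A protein-coding gene model on the same strand, Gm20489, spans the whole of Il2rg, so its reads cannot be separated from those of Il2rg.

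Il7r, the private chain of the IL-7 receptor, ranked next in both lineages. It lies at chr15:9505788-9530176 on the minus strand and was at 61.4 FPKM (59.2 to 63.1) in CD4SP and 47.2 FPKM (44.8 to 49.0) in CD8SP. The log2 ratio was -0.38 and was not called. The RefSeq transcript alone was at 51.3 and 32.0 FPKM, a log2 ratio of -0.68. CD4SP was thus the higher library in both values, by less than 2-fold.

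Below Il7r the order of the genes differed between the libraries. In CD4SP the order by FPKM was Il2rg, Il7r, Il4ra, Il21r, Il2rb, Il2ra, Il15ra and Il9r, and of these neighbours only Il15ra and Il9r had overlapping intervals. In CD8SP the order was Il2rg, Il7r, Il21r, Il2rb, Il4ra, Il15ra, Il2ra and Il9r. There Il21r overlapped Il2rb, and Il2rb overlapped Il4ra, so by these sums neither pair is ordered beyond its intervals. Il21r (36.2 to 40.1) did not overlap Il4ra (29.4 to 34.5). An exon-based value counts each transcript that overlaps a gene's RefSeq exons by the share of those exons that it covers. In that value Il21r, Il2rb and Il4ra were at 31.4, 33.7 and 18.9 in CD8SP. The Il4ra sum counts partial transcripts in full, and its share of Il2rg below rests on that sum. Relative to the FPKM of Il2rg, Il7r stood at 39.5% in CD4SP and 24.0% in CD8SP, Il4ra at 23.0% and 16.2%, Il21r at 11.3% and 19.3%, and Il2rb at 7.86% and 18.0%. These are ratios of transcript levels and say nothing of protein at the surface.

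Il2ra encodes the alpha chain CD25, which raises the affinity of the IL-2 receptor and marks regulatory T cells and their precursors. It lies at chr2:11642807-11693193 on the plus strand. Il2ra was at 3.22 FPKM (2.31 to 4.30) in CD4SP and 0.366 FPKM (0.239 to 0.504) in CD8SP, and the log2 ratio was -2.83. The RefSeq transcript alone gave 1.20 and 0.280 FPKM, a log2 ratio of -1.78, so the difference was smaller but still called without the assembled transcripts. In CD4SP the RefSeq transcript carried 37.4% of the gene's FPKM and in CD8SP 76.4%.

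Some markers of regulatory T cells were also higher in CD4SP. Of 8 such markers, 7 were at 1 FPKM or more, 3 were called higher in CD4SP and 0 in CD8SP. The lineage factor Foxp3 was at 2.18 and 0.318 FPKM, the costimulatory receptor gene Tnfrsf4 at 12.6 and listed at 0, and Nrp1 at 3.12 and 0.589. Ctla4, Tnfrsf18 and Ikzf4 were not called, at log2 ratios of -0.37, -0.24 and -0.05, and neither was Ikzf2, at 12.5 FPKM in CD4SP and 21.1 in CD8SP. In the exon-based value Ctla4 was at 7.58 in CD4SP and 2.35 in CD8SP, and Ikzf2 at 8.74 and 15.2. The summed FPKM of the list was 57.2 in CD4SP and 44.0 in CD8SP, and 1 marker, Tnfrsf4, was listed at 0 in CD8SP. In CD4SP, Foxp3 and Tnfrsf4 lie below their own deposited intervals. The part of such cells in the difference of Il2ra was not tested.

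Il2rb encodes the signalling beta chain of the IL-2 and IL-15 receptors and is abundant on memory and innate-like T cells and on NK cells. It lies at chr15:78479256-78495271 on the minus strand. Il2rb was at 12.2 FPKM (11.1 to 13.4) in CD4SP and 35.3 FPKM (33.3 to 37.6) in CD8SP, a log2 ratio of 1.52. After scaling the ratio was 1.31 and the call held.

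Most Il2rb FPKM belonged to transcripts with the 10 exons of the RefSeq transcript but a more distal 3' end. The RefSeq transcript ends at position 78480549, and an assembled transcript with the same introns ran 995 bases further in CD4SP and 1032 bases further in CD8SP, within the GENCODE gene. That assembled form also began 139 bases before the RefSeq start in CD4SP and 163 bases before it in CD8SP. The longer form was at 8.50 FPKM (8.06 to 8.98) in CD4SP and 19.2 FPKM (18.7 to 20.1) in CD8SP. The RefSeq form was at 1.72 FPKM (1.47 to 1.97) and 10.3 FPKM (9.66 to 11.0). The longer form thus made up 83.2% of this pair in CD4SP and 65.1% in CD8SP. Both forms were higher in CD8SP, the longer by 2.26-fold and the RefSeq form by 6.00-fold. The RefSeq form lies within the longer one and has the same introns, so the split between them rests on the FPKM estimate.

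Markers of innate-like T and NK cells went both ways. Of 8 such genes, 5 were at 1 FPKM or more, and Klrb1c and Il17rb were called higher in CD4SP while Eomes and Klrd1 were called higher in CD8SP. Eomes, a transcription factor of memory-like CD8 cells, was at 0.261 FPKM in CD4SP and 2.28 in CD8SP, and the lectin receptor gene Klrd1 at 3.70 and 32.2. Klrb1c was at 3.26 and 0.268 FPKM, Il17rb at 3.66 and 0.365, and Klrk1, not called, at 2.19 and 1.77. Zbtb16 (0.622 and 0.0224) and Tbx21 (0.969 and 0.270) were under 1 FPKM, and the NK receptor gene Ncr1 was listed at 0 in both. The summed FPKM of the list was 14.7 in CD4SP and 37.1 in CD8SP, of which Klrd1 alone gave 32.2 in CD8SP, so the sum follows that gene. The part of such cells in the difference of Il2rb was not tested.

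Il15ra, which binds IL-15 and can present it to neighbouring cells, was near 1 FPKM in both lineages. It lies at chr2:11705290-11734317 on the plus strand, 12096 bases from Il2ra, with 0 GENCODE genes between them. Il15ra was at 1.10 FPKM (0.521 to 1.95) in CD4SP and 0.931 FPKM (0.529 to 1.45) in CD8SP. The intervals overlapped, and the sign of the ratio changed from -0.22 to 0.06 on the log2 scale in the exon-based value. Of these neighbours Il2ra was called and Il15ra was not, and the difference between them was not tested.

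Il4ra, the private chain of the IL-4 receptor and a chain of the IL-13 receptor, was similar in both lineages. It lies at chr7:125552120-125579474 on the plus strand and was at 35.8 FPKM (31.4 to 37.7) in CD4SP and 31.8 FPKM (29.4 to 34.5) in CD8SP. The intervals overlapped. The log2 ratio of -0.17 turned to 0.06 with the RefSeq transcript alone. It was 0.02 in the exon-based value, 18.6 in CD4SP and 18.9 in CD8SP, so no direction is given.

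Il21r, the private chain of the IL-21 receptor, lies 23954 bases from Il4ra, at chr7:125603429-125633570 on the plus strand, with 0 GENCODE genes between them. It was at 17.5 FPKM (16.3 to 18.8) in CD4SP and 37.9 FPKM (36.2 to 40.1) in CD8SP. The log2 ratio of 1.11 was called, but it was 0.90 after scaling, which ends the call. Its RefSeq transcript alone was at 11.4 and 23.5 FPKM, a log2 ratio of 1.04.

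Il9r, the private chain of the IL-9 receptor, was low. It lies at chr11:32187541-32200279 on the minus strand and was at 0.252 FPKM (0.0306 to 0.588) in CD4SP and 0.00651 FPKM (0 to 0.0248) in CD8SP. The intervals did not overlap, but both values were under the 1 FPKM needed for a call, and the RefSeq transcripts alone were at 0.0451 and 0.00651 FPKM.

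For each called member, the genes with the most similar pair of levels were found by the distance of their log2(FPKM + 0.1) values over the 2 libraries. Nearest to Il2ra were Il17rb, at 3.66 and 0.365 FPKM, and Gm9833, at 3.60 and 0.338. Nearest to Il2rb were Adcy7 (12.3 and 36.7 FPKM) and Pdcl3 (12.2 and 33.1). Nearest to Il21r were Gnb2 (17.3 and 37.8 FPKM) and Anp32e (17.6 and 37.3). With 2 libraries these are only genes at like levels.

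The genes differed in how much of their FPKM lay in known transcripts. The RefSeq transcript carried 92.5% of Il2rg in CD4SP and 93.5% in CD8SP, but 41.4% and 48.6% of Il4ra. In Il7r it carried 83.5% in CD4SP and 67.8% in CD8SP, and transcripts that retain an intron carried 12.3% and 25.1%. In Il21r such transcripts carried 35.0% and 27.0%, the highest share of any member in either library. Over the members, 38 distinct assembled intron chains were listed in CD4SP and 32 in CD8SP, of which 2 were in both, those of the RefSeq transcripts of Il2rb and Il4ra. The shared chains were 5.26% of those in CD4SP and 6.25% of those in CD8SP, beside 9.09% and 9.69% over all genes, so most assembled chains were listed in 1 library across the files.

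**Figure D2:**
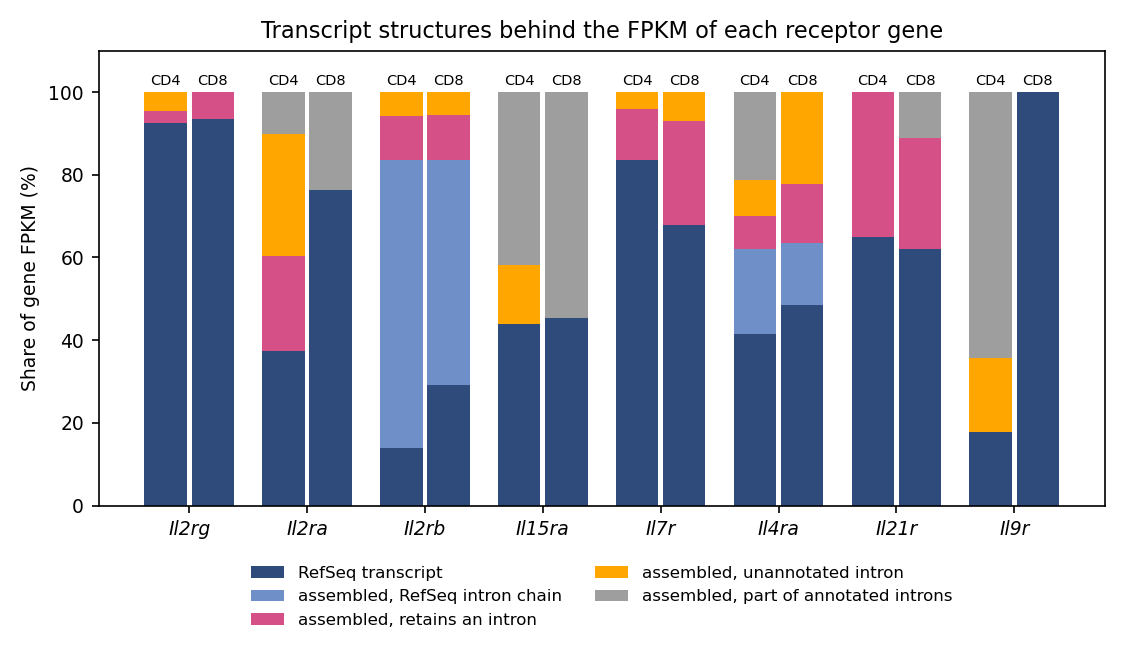
Share of each gene's FPKM by transcript structure, as stacked bars from 0 to 100% for CD4SP (left bar of a pair) and CD8SP (right bar), with colours for RefSeq transcripts and for 4 classes of assembled transcript. Il2rg is almost wholly the RefSeq transcript, Il2rb is mostly an assembled transcript with the RefSeq introns, and Il21r has the largest retained-intron share; Il15ra, Il9r and, in CD8SP, Il2ra rest on about 1 FPKM or less.

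A soluble IL-4 receptor is made in mice from an alternative Il4ra exon that ends the reading frame before the transmembrane region, and junctions of this exon were used in both lineages. GENCODE places it in Il4ra-205, a transcript of 12 exons, at chr7:125571934-125572047 on the plus strand, between exons 7 and 8 of the RefSeq transcript. It has 114 bases, of which bases 18 to 20 are a stop codon. Both junctions are shown 5′ to 3′ from the GENCODE M21 transcripts on GRCm38, since they tell the soluble from the membrane form. Lower case marks the last 24 bases of exon 7 (chr7:125571567-125571590), and capitals mark the next 20 bases, which in the soluble form end in the stop codon TGA.
Il4ra exon 7 joined to the alternative exon: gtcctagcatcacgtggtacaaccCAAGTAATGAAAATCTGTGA
Il4ra exon 7 joined to exon 8: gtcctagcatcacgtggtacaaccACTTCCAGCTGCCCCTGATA

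Of the FPKM that uses either junction, the intron into the alternative exon held 17.3% (14.8 to 19.8, from the deposited intervals) in CD4SP and 10.5% (8.68 to 12.3) in CD8SP. The intron out of the exon held 14.1% (12.0 to 16.2) in CD4SP and 7.98% (6.46 to 9.56) in CD8SP. CD4SP was higher at both junctions and the intervals did not overlap, but both differences were well under the 20 points used for a call. The exon was joined on both sides in 1 CD4SP transcript, at 1.42 FPKM, and in 0 CD8SP transcripts. Without that transcript the CD4SP shares were 12.7% (10.9 to 14.5) into the exon and 9.11% (7.83 to 10.4) out of it. Both intervals then overlapped those of CD8SP, so the separation rests on that 1 transcript. Other transcripts joined the exon on the upstream side and ran on through the next intron, or reached it without splicing and joined exon 8. The antisense gene Gm44876 (chr7:125570776-125572117) overlaps the exon, and the sources used here do not say whether reads were counted by strand, so reads of both genes cannot be told apart there.

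**Figure D3:**
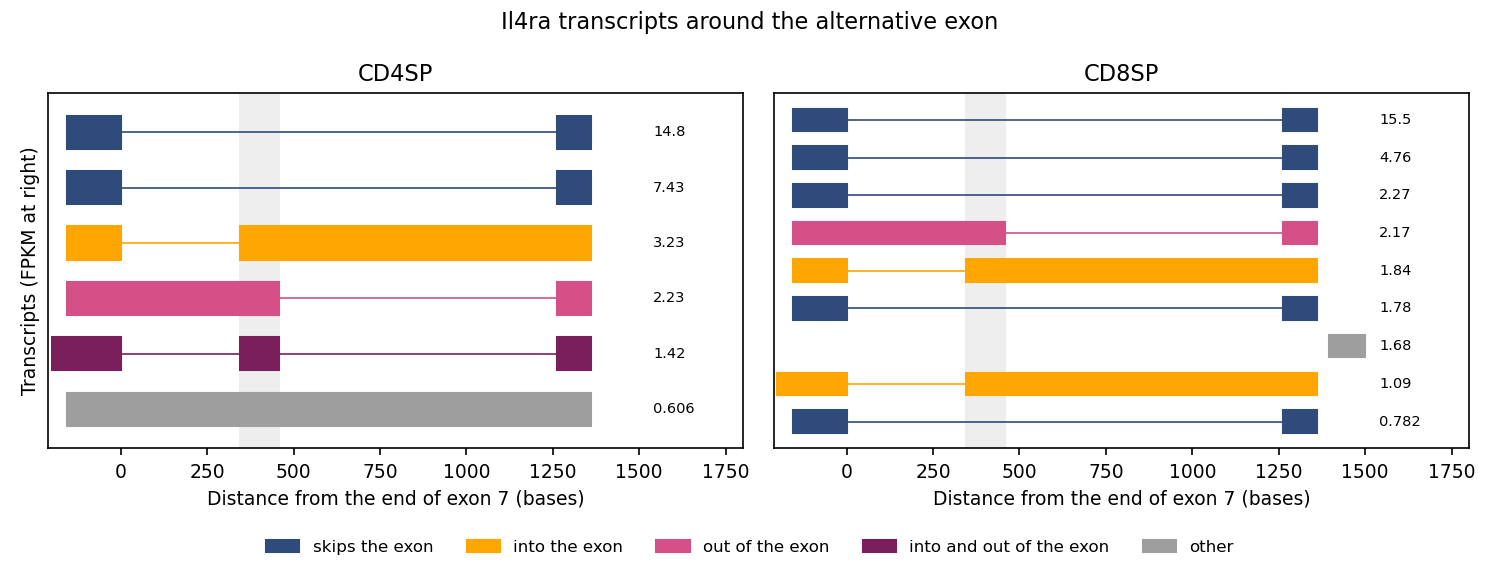
Il4ra transcripts above 0 FPKM between exon 7 and the region past exon 8, with boxes for exons and thin lines for introns, by distance in bases from the end of exon 7, and with the FPKM of each at its right. The grey band is the alternative exon and colours show how a transcript uses it; the RefSeq transcript that skips it, drawn at the top of each panel, is at 14.8 FPKM in CD4SP and 15.5 in CD8SP.

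Soluble forms of the IL-7 receptor and of the common gamma chain are known to arise by skipping exon 6, which encodes the transmembrane region, and no listed transcript of either gene skipped it. Exon 6 is shown in capitals with 10 bases of each neighbouring exon in lower case, 5′ to 3′ on the transcribed strand, from the GENCODE M21 transcripts. They are shown as the stretch whose loss would give the soluble forms. The exon of Il7r is at chr15:9510166-9510259 and that of Il2rg at chrX:101265630-101265726.
Il7r exon 6: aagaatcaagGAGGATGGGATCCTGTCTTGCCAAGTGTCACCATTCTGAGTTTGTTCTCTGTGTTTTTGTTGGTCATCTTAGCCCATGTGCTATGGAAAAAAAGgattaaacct
Il2rg exon 6: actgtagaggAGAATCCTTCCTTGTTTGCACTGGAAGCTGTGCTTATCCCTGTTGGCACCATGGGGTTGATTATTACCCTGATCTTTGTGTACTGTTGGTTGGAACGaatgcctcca

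With 94 bases in Il7r and 97 in Il2rg, neither exon is a multiple of 3 bases. Joining exon 5 to exon 7 in the GENCODE transcripts would leave an open reading frame of 262 codons in place of 459 for Il7r, and 263 in place of 369 for Il2rg. Exon 6 of Il7r was included in transcripts summing to 52.3 FPKM in CD4SP and 33.0 in CD8SP, and skipped in 0 FPKM in both. For Il2rg the included transcripts summed to 144 and 184 FPKM, and again 0 FPKM skipped the exon. The file lists assembled transcripts and no junction reads, so a rare skipped form that was not assembled would not be seen.

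Splicing events were built from pairs of transcripts that differ at a skipped exon, a retained intron or an alternative splice site. The longer form's share of the summed FPKM is its percent spliced in (PSI), and an event was called where PSI differed by at least 20 percentage points at 1 FPKM or more in both libraries. Of 85 member events, 16 were called, beside 18.6% of 71412 events over all genes, so the share is near the background. Of the 65 member events with a RefSeq transcript in a form, 1 was called, beside 12.4% of 63988 such events. The other 15 called events compare assembled forms with each other. Events of a gene share transcripts and are not independent, and Il2ra, Il15ra and Il9r had 0 events at the minimum FPKM.

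The called event with a RefSeq form was retention of intron 5 of Il7r (chr15:9510260-9511110, 851 bases), the intron just before the transmembrane exon. Retention of the whole intron was at 0% in CD4SP and 20.4% (18.1 to 21.2) in CD8SP. Some CD4SP transcripts kept part of the intron through alternative 3' splice sites, and these counted neither as retained nor as spliced. The forms that kept 449 and 252 bases of it had a PSI of 12.9% and 2.94% in CD4SP, and of 0% in CD8SP. Transcripts that retain the whole intron summed to 8.44 FPKM in CD8SP, beside 33.0 FPKM that splice it. Intron 4 was retained at 12.7% and 14.7%, and intron 3 at 0% and 9.31%. Retention of a whole intron was thus seen in 1 intron in CD4SP and in 3 adjacent ones in CD8SP. The CD4SP transcript that retains intron 4 was at 7.57 FPKM, above its own deposited interval of 6.35 to 7.09, and it also holds 2 unannotated introns. All 3 of the CD8SP transcripts that retain an intron also hold unannotated introns and extend past an end of the RefSeq transcript, so they are not the RefSeq transcript with an intron added.

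Il21r had the highest intron retention of the members. The median over its 8 introns was 15.9% in CD4SP and 12.5% in CD8SP, and the other genes had medians of 0%, apart from Il2rb at 3.07% in CD4SP. Intron 7 (chr7:125629835-125630704) was retained at 32.6% (29.4 to 35.9) and 18.6% (16.6 to 20.5), and intron 4 at 28.0% (24.9 to 31.3) and 15.3% (13.6 to 16.9), both higher in CD4SP. Intron 5 went the opposite way, at 15.9% (14.2 to 17.8) and 27.0% (24.5 to 29.2). None of these 3 differences reached 20 points. The part of intron 3 up to an alternative 3' splice site 52 bases before exon 4, chr7:125625368-125626830, was retained at 62.8% and 40.7%, the 1 called member event with both forms in both libraries, on 4.29 and 9.51 FPKM.

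**Figure D4:**
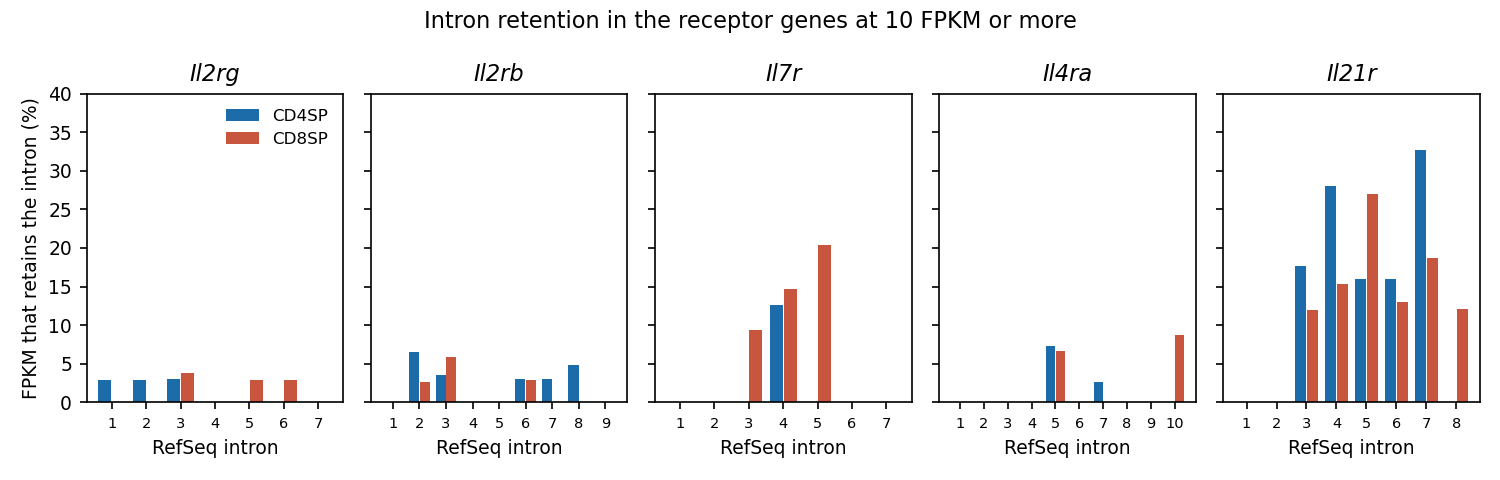
Share of FPKM that retains each RefSeq intron, as bars from 0 for CD4SP (blue) and CD8SP (red), in the 5 receptor genes at 10 FPKM or more in both libraries. Retention lies in introns 3 to 8 of Il21r and 3 to 5 of Il7r, and stays under 9% in Il2rg, Il2rb and Il4ra.

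No skipped exon of the members reached a difference of 20 points among the 13 tested. Exon 2 of Il21r (chr7:125622868-125622930), of 63 bases of which 49 are coding, had a PSI of 82.4% in CD4SP and 97.5% in CD8SP, the largest difference of a skipped exon with a RefSeq form among them, at 15.1 points. The CD4SP transcript that skips it, at 2.69 FPKM, also retains introns 3 to 7. Skipping below is the share of FPKM in transcripts that splice over an exon, among those that include it or splice over it. By that share exon 7 of Il21r was skipped in 5.20% of FPKM in CD4SP and 12.3% in CD8SP. Exon 7 of Il2rb was skipped in 4.19% of FPKM in CD4SP and 11.6% in CD8SP. Exon 3 of Il15ra, too low to be tested, was skipped in 0% in CD4SP and 26.8% in CD8SP, the latter on 0.154 FPKM that skips it and 0.422 that includes it. In Il2rg, exon 4 (143 coding bases) was skipped in 2.95% of CD8SP FPKM and in 0% of CD4SP. An alternative 3' splice site 35 bases before exon 4 was used in 4.66% of Il2rg FPKM in CD4SP and 0% in CD8SP.

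Intron 6 of Il2ra was retained at 29.2% in CD4SP and 0% in CD8SP, but on 1.94 and 0.280 FPKM, the latter too low for an event. A gene model of unknown status on the same strand, Gm37881, begins at the start of that intron (chr2:11683126-11683546), and reads of the intron and of that model cannot be told apart.

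Long reads added 3 isoforms of the receptor genes, all in CD8SP. In CD4SP 0 of 8289 isoforms belonged to a member, which allows a share of up to 0.0362% by a limit of 3 isoforms and 0.0445% by the exact Clopper-Pearson 95% interval. In CD8SP 3 of 9476 did, or 0.0317% (exact Clopper-Pearson 95% interval 0.00653% to 0.0925%), which does not separate the libraries at this depth. The intervals cover counting error only, and isoforms were counted once each because their read numbers are not given. Il2rg had a full match of 8 exons and 1621 bases with an open reading frame of 369 codons, the length of the membrane form. Il4ra had a fragment of 5 exons and 2759 bases that starts in exon 7 and joins it to exon 8, so it skips the alternative exon. The isoform of Il2rb was unspliced, with 1631 bases.

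Genes that act with the receptors were called in both directions. Of 43 pathway genes, 33 were at 1 FPKM or more, of which 3 were called higher in CD4SP and 4 in CD8SP, beside 15.0% of all genes. Of the 7 ligand genes 0 reached 1 FPKM, with Il7 and Il9 listed at 0 in both libraries, Il21 at 0.690 FPKM in CD4SP and listed at 0 in CD8SP, and Il4 at 0.292 and listed at 0. Crlf2, the chain that pairs with the product of Il7r in the receptor for the epithelial cytokine TSLP, was at 6.42 and 8.06 FPKM.

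None of the 4 JAK family kinases or the 5 STAT factors was called. Jak1 was at 62.7 and 70.4 FPKM and Jak3, the kinase bound to the shared chain, at 11.4 and 14.6. Stat5a (12.7 and 12.4) and Stat5b (27.8 and 21.7), which act downstream of IL-2 and IL-7, and Stat6 (15.3 and 28.7), which acts downstream of IL-4, also stayed under the size for a call. Stat6 came closest, at a log2 ratio of 0.90, with both of its values below their own deposited intervals.

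Of 7 feedback inhibitor genes, Socs3 was called, higher in CD8SP at 2.42 against 5.37 FPKM, and 6 were at 1 FPKM or more. Of 10 target genes, 2 were called in each direction. The survival kinase gene Pim1 was at 12.2 FPKM in CD4SP and 5.78 in CD8SP, and the transcription factor gene Irf4 at 11.8 and 3.10. Its relative Pim2 went the opposite way, at 3.89 and 8.05, and so did the cyclin gene Ccnd2, at 23.2 and 60.8. Myc, at 11.4 and 22.9 FPKM, missed the size for a call at a log2 ratio of 0.995, and in the exon-based value it was at 11.2 and 23.5.

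Among 7 regulators of Il7r transcription, Runx1 was called higher in CD4SP, at 29.0 against 7.41 FPKM, and Runx3, the RUNX factor of the cytotoxic lineage, higher in CD8SP, at 3.15 against 9.23. Foxo1, an activator of Il7r, was at 35.5 and 32.0, and Gfi1, a repressor, at 2.42 and 3.13. The calls of Socs3 and Pim2 were lost after scaling. In the exon-based value, Pim1 was at 9.89 and 5.86 and Ccnd2 at 29.5 and 49.8, under 2-fold, and Runx1 was at 11.7 and 4.01. Socs3 in CD4SP and Ccnd2 and Runx3 in CD8SP lie outside their own deposited intervals.

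**Figure D5:**
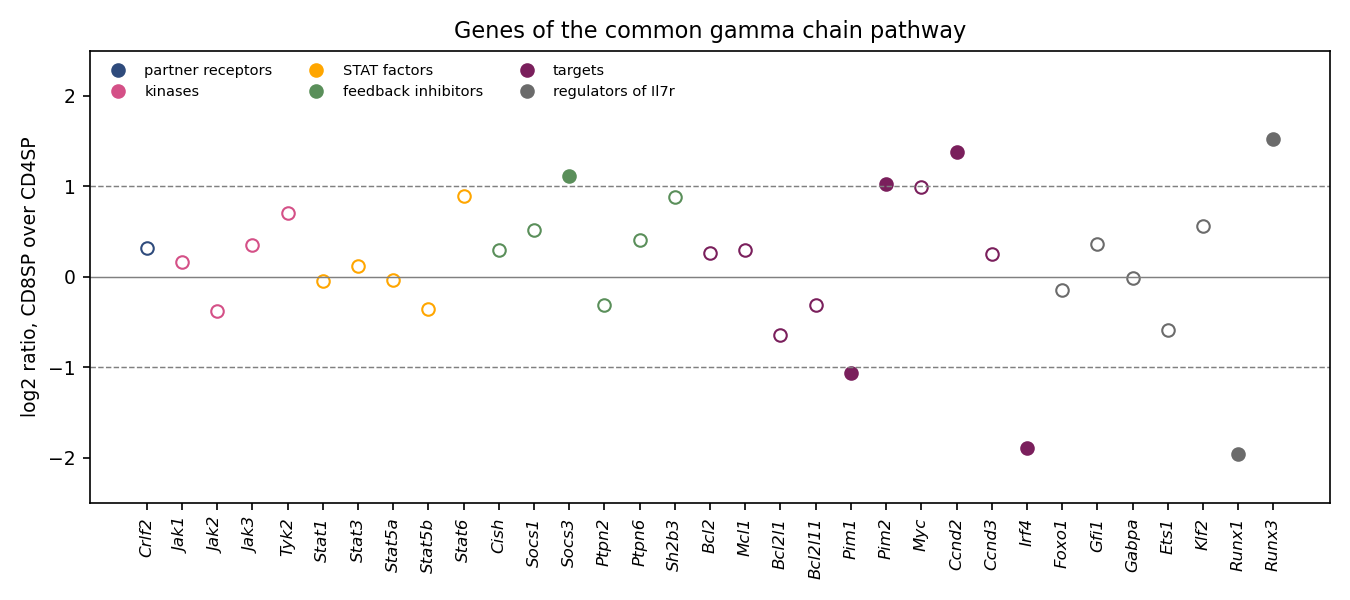
The log2 ratio of CD8SP to CD4SP for the 33 pathway genes at 1 FPKM or more, coloured by list, with filled points for called genes and open points for the others. Dashed lines mark ratios of -1 and 1; Irf4 and Runx1 lie lowest, at -1.89 and -1.95, and Runx3 highest, at 1.52.

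Markers of other cells that the sort could hold were present at differing levels. Of 6 double-positive thymocyte genes, Rag1 (12.5 and 4.12 FPKM) and Arpp21 (5.54 and 2.07) were called higher in CD4SP. Dntt was at 13.9 and 11.2 FPKM and Cd1d1 at 5.64 and 6.79, and the list summed to 38.6 and 24.7 FPKM. Of 5 B cell genes, Cd79b was called higher in CD8SP, the list summed to 0.679 and 5.51 FPKM, and Cd79a and Pax5 were listed at 0 in both. In the exon-based value, which also counts overlapping transcripts not assigned to a gene, Cd79a was at 7.05 and 0.248. The B cell list then summed to 7.73 in CD4SP and 5.38 in CD8SP, the opposite direction. Both Cd79a values came from transcripts not assigned to Cd79a, and their source was not tested. Of 6 myeloid and dendritic genes, H2-Ab1 was called higher in CD4SP and the list summed to 2.66 and 0.784 FPKM. The part of these cells in the receptor values was not tested.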

How the data were processed

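Short-read libraries were made from total RNA depleted of ribosomal RNA and sequenced as paired ends, and long-read libraries from full-length cDNA, per the labels' protocols. Cufflinks 2.1.1, TopHat2 2.0.14, RSEM 1.3.1, Trimmomatic, FastQC, GSNAP and the build GRCm38 are listed by the submitters' processing notes with no roles. The deposited short-read files give, per transcript, FPKM with an interval as the other attributes of Cufflinks output, per the file headers, and pool the lanes of a lineage. The sources used here give no read numbers. The deposited long-read tables give isoform length, exon number and, as a percent, the A content beyond each 3' end, per the file headers. A further table of TPM was not used, since its identifiers are not paired with genes.

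Transcripts were joined to genes through RefSeq identifiers in the GRCm38.p6 gene table and GENCODE M21, which matched 30202 of 30604. Gene FPKM is the sum over transcripts, with a pseudocount of 0.1 in log2 ratios, which understates the change of low genes. Of the RefSeq transcripts, 4.89% in CD4SP and 5.19% in CD8SP have an FPKM outside its own interval, so the intervals are an incomplete measure of error, and a value listed at 0 can be a failed estimate. A retained intron needed 10 bases of exon on each side. Scaling set the median log2 ratio of genes at 1 FPKM in both libraries, 0.21, to 0. The exon-based value counts each transcript of at least 200 bases by its share on RefSeq exons. All 8 receptor genes were described, with transcripts of 1 FPKM or more, called events, every long-read isoform, the pathway lists and the 2 nearest genes of each called member. The members and lists were chosen with earlier results of these data known. Scripts ran in Python and SciPy and were tested on simulated data.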

Additional observations from a re-analysis of the deposited data

How the results depend on the processing

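No paired analysis was possible because the lanes of each lineage were pooled in 1 set of values, and for the same reason no replicate could be left out. Of 48 alternative values of the member log2 ratios, 43 kept their direction and their side of the call rule, 3 reversed, 1 was lost and 1 was gained. Part of that count was fixed in advance. Dropping the minimum FPKM, or letting intervals overlap, leaves the ratio unchanged and can only add a call. A pseudocount of 1 cannot change a direction. Reversed were Il4ra with RefSeq transcripts only (0.058) and in the exon-based value (0.02), and Il15ra in the exon-based value (0.059). Il21r was lost after scaling (0.90), which left 1 member called higher in CD8SP. Il9r was gained with no minimum FPKM (-1.73), which made 2 members higher in CD4SP. The causes were not tested. Over all genes, 471 were called higher in CD4SP and 976 in CD8SP, and after scaling 650 and 693. A pseudocount of 1 gave 266 and 634, and no minimum FPKM gave 1028 in CD4SP.

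Of events over all genes 13260 (18.6%) were called, and 5767 (10.9%) at a minimum of 3 FPKM and 29910 (41.9%) at 10 points. With both forms in RefSeq 373 (18.0%) were called, and 2133 (11.2%) with both forms above 0 in both libraries. With a RefSeq transcript in a form 7941 (12.4%) were called. Of member events 16 of 85 were called, 7 of 76 at 3 FPKM and 29 of 85 at 10 points. With both forms in both libraries 1 of 26 was called, and with a RefSeq transcript in a form 1 of 65. With both forms in RefSeq, 0 member events were left to test. The setting with a RefSeq transcript in a form was chosen after seeing the data. The unknown read depth limits every value, and the 3 long-read isoforms limit what long reads show.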

Other observations

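Some transcripts in the loci of the receptor genes fell outside the rule, since they share introns with no RefSeq transcript of a member or with several genes. In Il7r 4 spliced transcripts summing to 15.5 FPKM in CD4SP and 2 summing to 5.71 FPKM in CD8SP were left out in this way, so the Il7r level rests on which assembled transcripts are counted. In Il21r 1 such transcript of 2.26 FPKM was left out in CD4SP and 0 in CD8SP, and in Il2ra 2 of 0.532 FPKM in sum and 0. No such transcript was listed for Il2rg, Il2rb, Il4ra, Il15ra or Il9r. Unspliced fragments inside the genes were most numerous in Il2ra, with 59 in CD4SP and 72 in CD8SP, and in Il15ra, with 43 and 48. Il9r held 11 and 3, the other genes held between 2 and 9, and Il2rg held 0 in both.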
